A study of Mus musculus with 72 samples.

Results

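Fos, Fosb, Jun, Junb, Egr1, Ier2, Dusp1, Klf6, Btg2 and Zfp36 are immediate early genes, and their transcript levels were described in whole blood of lead-exposed and control mice. These are 10 of 18193 genes that the array annotation names through a probe set with exactly 1 gene symbol. They are measured by 16 probe sets, 5 of them for Klf6 and 2 each for Jun and Btg2. Each gene was represented by its probe set with the highest mean over all 72 arrays, and the others served as a check. Female Balb/c mice, 9 weeks old at the start, drank water for 2 weeks that held lead acetate trihydrate at 0, 5 or 50 µg/mL, called control, low dose and high dose here, and then drank water without lead for 2 weeks. Blood was taken at the end of the recovery from 7 control, 15 low-dose and 13 high-dose mice, and at the end of the exposure from 7 control, 15 low-dose and 15 high-dose mice. Blood came from the submandibular vein. All exposed mice were bled at the first collection but only 7 of the controls, and it is not stated if the 7 controls of the second collection were other animals. Each array is 1 blood sample depleted of globin transcripts, so p-values measure the spread between samples and treat the collections as independent.

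Immediate early genes are transcribed within minutes of a stimulus, without prior protein synthesis, when MAP kinases act on factors such as SRF with its ELK partners and CREB. Their products are transcription factors that carry the signal on (FOS and JUN proteins, which pair to form AP-1, and the zinc finger proteins EGR1 and KLF6) and feedback proteins that end it. DUSP1 removes phosphate from p38 and JNK kinases, ZFP36 (tristetraprolin) binds AU-rich elements of cytokine transcripts and speeds their decay, and BTG2 binds the deadenylase complex and restrains proliferation. In leukocytes these genes respond to cytokines, microbial products and stress hormones, and most of their transcripts are short-lived.

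The promoters of Fos, Dusp1, Btg2 and Zfp36 are shown because the first 2 genes carry the differences between groups described here, while the other 2 are feedback genes whose group means spanned less. RefSeq (GRCm38.p6) gave a promoter for 8 of the 10 genes, which leaves out Egr1 and Ier2. Printed are the 250 bases before the transcription start, 5′ to 3′ on the gene's strand. Capitals mark matches to the cAMP response element TGACGTCA or its part TGACGT, the EGR motif GCGNGGGCG, the TATA box TATAAA and the serum response (CArG) box, searched on both strands.
Fos, chr12:85473640-85473889, plus strand: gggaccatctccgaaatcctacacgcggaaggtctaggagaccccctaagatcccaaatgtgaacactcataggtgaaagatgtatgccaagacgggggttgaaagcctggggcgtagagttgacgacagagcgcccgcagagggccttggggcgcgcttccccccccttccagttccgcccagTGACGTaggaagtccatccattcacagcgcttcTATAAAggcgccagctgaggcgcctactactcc
Dusp1, chr17:26508473-26508722, minus strand: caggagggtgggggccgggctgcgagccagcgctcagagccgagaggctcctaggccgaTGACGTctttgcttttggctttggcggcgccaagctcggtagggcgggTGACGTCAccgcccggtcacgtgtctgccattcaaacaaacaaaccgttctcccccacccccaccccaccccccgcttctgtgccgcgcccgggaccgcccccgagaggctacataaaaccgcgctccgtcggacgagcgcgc
Btg2, chr1:134079156-134079405, minus strand: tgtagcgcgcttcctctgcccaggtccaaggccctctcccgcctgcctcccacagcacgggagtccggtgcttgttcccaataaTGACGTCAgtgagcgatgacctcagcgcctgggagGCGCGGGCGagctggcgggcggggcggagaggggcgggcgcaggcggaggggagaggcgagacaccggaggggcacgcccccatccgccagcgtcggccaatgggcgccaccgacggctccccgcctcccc
Zfp36, chr7:28379229-28379478, minus strand: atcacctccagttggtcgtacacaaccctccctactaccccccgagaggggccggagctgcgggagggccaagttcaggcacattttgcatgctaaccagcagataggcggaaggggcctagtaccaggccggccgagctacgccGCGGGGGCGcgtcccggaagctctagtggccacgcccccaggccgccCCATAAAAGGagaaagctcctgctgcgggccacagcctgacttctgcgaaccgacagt

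The Dusp1 window holds the full TGACGTCA at base -143 and a second TGACGT at base -191 from the start. The Btg2 window holds TGACGTCA at base -166, and the Fos window holds TGACGT at base -66 and TATAAA at base -33. TGACGTCA is found in 1.55% and TGACGT in 6.47% of all 32851 mouse windows of this length, and each TGACGTCA also counts as a TGACGT. GCGNGGGCG was found upstream of Btg2, Fosb and Zfp36 and in 4.70% of all windows, TATAAA in the Fos window alone of the 8 and in 12.4% of all windows, and a CArG box in the Zfp36 window and in 1.47% of all windows. The AP-1 motif TGANTCA, present in 6.75% of all windows, and the glucocorticoid receptor motif AGAACA, present in 16.1%, had no match in these 8 windows. CCAAT was found upstream of Btg2, Jun, Junb and Klf6 and in 33.8% of all windows. These matches describe the letters in the windows and were tested for no link with expression.

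Levels are given as deposited, in log2 units, and array medians lay between 4.05 and 4.22. Genes were tested when a probe set exceeded 4.14, the median of all values, in at least 7 arrays, which kept 12580 genes and 9 of the 10 immediate early genes. Correlations between arrays lay between 0.958 and 0.995, and 0 pairs of arrays were identical. The arrays widest in relative log expression were low-dose recovery replicates 4 and 15 and high-dose exposure replicates 13 and 1. The defining markers of blood cells were well measured, among them Cd79a (B cells), Cd3e (T cells), S100a8 (neutrophils), Csf1r (monocytes), Pf4 (platelets) and Alas2 (erythroid cells), each above 4.14 in 72 of 72 arrays. Of 10 markers of skin, muscle, connective tissue and salivary gland, Ckm exceeded it in 72 of 72 arrays, Krt5 in 70, Krt10 in 47, Acta1 in 26, Krt14 in 24, Col1a1 and Col3a1 in 3 each, and Myh2, Amy1 and Bpifa2 in 0. Their highest mean over the 72 arrays was 4.84, that of Ckm. In whole blood, fewer cells of a type and less RNA per cell cannot be told apart.

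Between groups, Fos and Dusp1 spanned the widest range of the 10 genes, and the plot of levels by group shows them beside the flatter profiles of the rest. The 6 group means of Fos spanned 1.94 on the log2 scale, a 3.84-fold range, and those of Dusp1 spanned 1.51, a 2.84-fold range. Klf6 and Junb followed with spans of 0.71 and 0.68. The spans of the other genes lay between 0.19 for Jun and 0.39 for Zfp36. Jun, the main partner of FOS proteins in AP-1, was dim, with values between 3.54 and 4.43 and 26 of 72 arrays above 4.14. Fosb, a close relative of Fos, exceeded 4.14 in 0 of 72 arrays, with values between 2.13 and 3.38 and group means between 2.70 and 3.0, and was not tested.

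**Figure D1:**
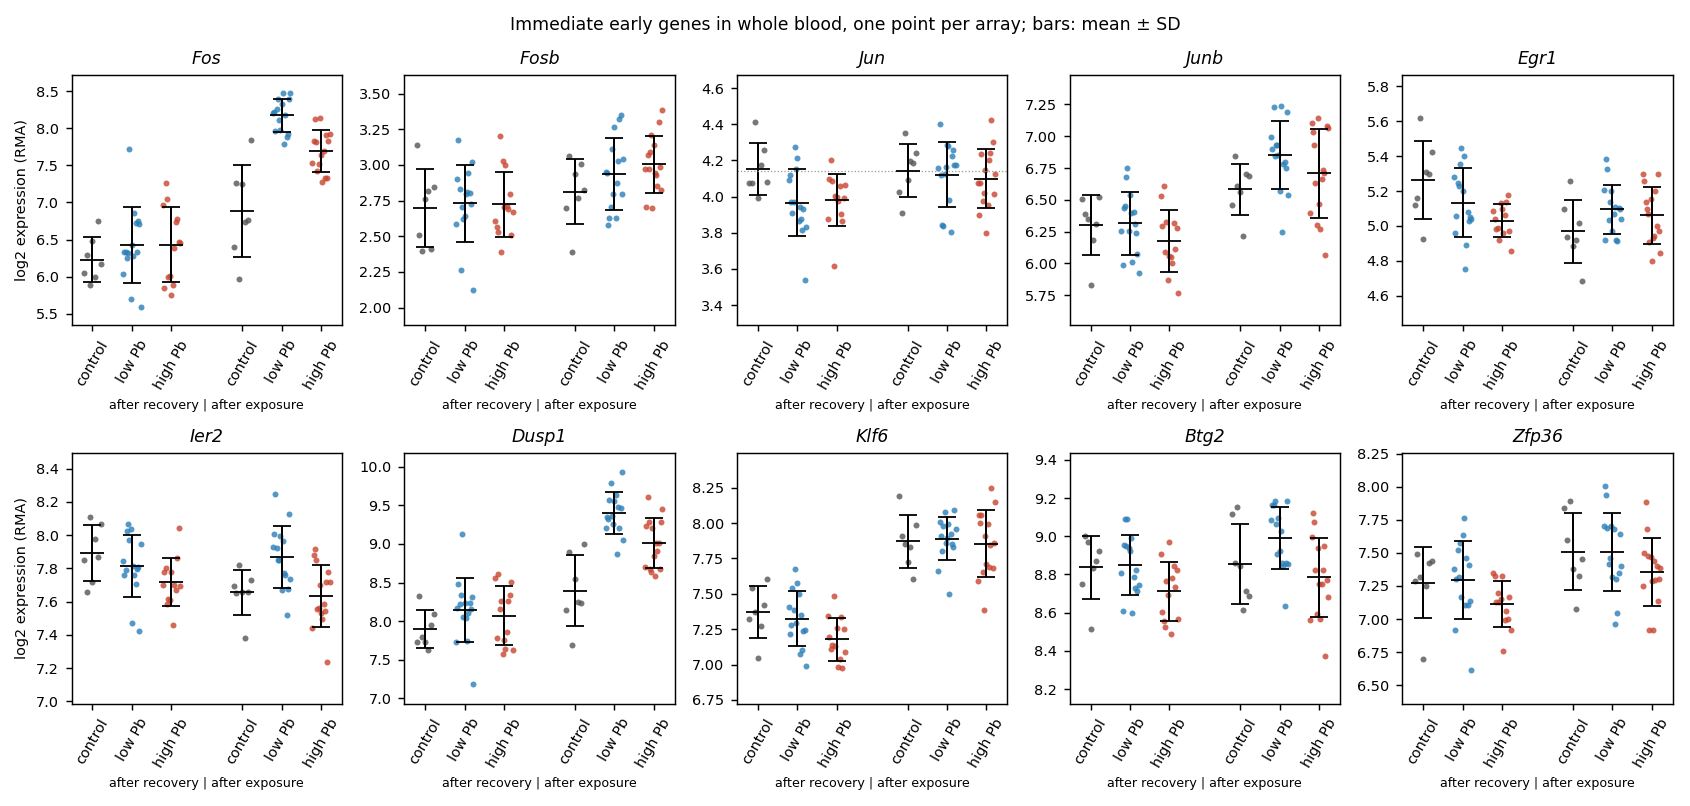
Deposited log2 level of each of the 10 genes (vertical axis, scaled per gene) in the 6 groups (horizontal axis), recovery groups on the left and exposure groups on the right of each panel, each from control to high dose. Points are arrays, black bars are group means ± SD, and the dotted line, seen in the Jun panel, is the filter level of 4.14. Fos and Dusp1 stand highest in the low-dose exposure group, and Klf6 is lower in the 3 recovery groups.

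After exposure to the low dose, Fos and Dusp1 were higher than in control mice, and they were the immediate early genes that passed the test. Fos, the AP-1 subunit, had a lowest, median and highest log2 level of 7.79, 8.20 and 8.47 in the 15 low-dose mice, against 5.97, 6.77 and 7.85 in the 7 control mice. The ranges overlapped by 1 control array, replicate 7: 14 of 15 low-dose arrays lay above all control arrays, and 6 of 7 control arrays lay below all low-dose arrays. The log2 difference was 1.28 ± 0.18 (SE), a 2.43-fold higher level, with an adjusted p of 7.33e-06 (limma, Benjamini-Hochberg over 12580 genes). Ranked by p, Fos stood first among all tested genes.

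Dusp1, the feedback phosphatase, had 8.87, 9.37 and 9.93 in low-dose mice, against 7.69, 8.25 and 9.00 in control mice. Again 14 of 15 low-dose arrays exceeded all control arrays, and 5 of 7 control arrays lay below all low-dose arrays. The log2 difference was 1.01 ± 0.16, 2.01-fold, with adjusted p = 3.47e-05. So 2 of 9 immediate early genes rose, beside 1.11% of all 12580 tested genes that were higher and 1.3% that passed in either direction. Leaving out any 1 array left both calls standing, with log2 differences of 1.13 to 1.44 for Fos and 0.89 to 1.11 for Dusp1.

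The other AP-1 and feedback genes differed less from control after the low dose. Junb had a log2 difference of 0.27 ± 0.12 (adjusted p = 0.319) and Ier2, a nuclear protein induced early by growth factors, one of 0.21 ± 0.08 (adjusted p = 0.196). For Egr1 the difference was 0.12 with a 95% interval of -0.03 to 0.28, and for Btg2 it was 0.14 with an interval of -0.03 to 0.30. Jun, Klf6 and Zfp36 had differences of -0.02, 0.02 and 0.00, with intervals that reached no further than 0.24 on either side of 0. The median over the 9 genes was 0.14, and that over all tested genes 0.00.

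Some cell marker means also differed between low-dose and control mice after exposure, in differences that were not tested. The mean log2 level of the 8 measured of 10 monocyte markers was 8.49 ± 0.13 in low-dose mice (range 8.28 to 8.72) and 8.09 ± 0.25 in control mice (7.72 to 8.50). That of 9 of 10 B cell markers was 8.90 ± 0.23 in low-dose mice (8.48 to 9.40) and 8.43 ± 0.68 in control mice (7.49 to 9.31). That of the 10 platelet markers was 9.83 ± 0.18 in low-dose mice (9.31 to 10.09) and 10.12 ± 0.17 in control mice (9.91 to 10.43). Means of the other lists lay closer together, with 8.38 in low-dose and 8.26 in control mice for neutrophil, 8.61 and 8.71 for T cell, 7.67 and 7.65 for NK and cytotoxic, and 9.08 and 9.23 for erythroid markers. With the cell marker means as covariates, the Fos difference was 0.96 ± 0.22 (limma adjusted p = 0.146) and the Dusp1 difference 0.94 ± 0.19 (adjusted p = 0.0486). The 18S ribosomal RNA level was 7.00 ± 0.86 in low-dose mice and 7.00 ± 0.73 in control mice, and the 3′ minus 5′ difference of Gapdh probe sets was 0.53 ± 0.13 in low-dose and 0.54 ± 0.13 in control mice. That of actin was 0.44 ± 0.07 in low-dose and 0.37 ± 0.11 in control mice, and relative log expression within an array had an interquartile range of 0.249 ± 0.045 in low-dose and 0.316 ± 0.037 in control mice. Within the control mice the 18S level had r = 0.89 with Fos and 0.87 with Dusp1, and within the low-dose mice -0.26 and -0.16. With 18S ribosomal RNA as a covariate, 200 of all 12580 genes passed limma's test for this comparison, against 164 without it. The part of the Gapdh, actin and relative log expression measures in the Fos and Dusp1 differences was not tested.

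After exposure to the high dose, 0 of 9 immediate early genes passed the test against control, beside 0.0238% of all tested genes, while 2 had an unadjusted p under 0.05. These were Fos and Dusp1. Fos had 7.28, 7.70 and 8.14 (lowest, median, highest) in the 15 high-dose mice, against 5.97, 6.77 and 7.85 in control mice. Of the high-dose arrays 4 lay above all control arrays, and 6 of 7 control arrays lay below all high-dose arrays. The log2 difference was 0.80 ± 0.18, 1.74-fold, with a limma adjusted p of 0.0552.

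Dusp1 had 8.59, 9.01 and 9.60 in high-dose mice, against 7.69, 8.25 and 9.00 in control mice, with 8 of 15 high-dose arrays above all control arrays. Its log2 difference was 0.61 ± 0.16, 1.53-fold, with adjusted p = 0.0954. The Fos call depended on single arrays. It passed without control replicate 7 (0.96, adjusted p = 0.0090) or without high-dose replicate 1, 5, 6 or 13 (each at an adjusted p under 0.05), and its adjusted p was 0.447 without control replicate 3, the lowest control array. The remaining 7 genes had log2 differences between -0.15 (Zfp36) and 0.12 (Junb). Both doses were compared with the same 7 control arrays, so the low-dose and high-dose differences are not independent of each other.

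Set directly against each other after exposure, the high-dose mice had lower Fos, Dusp1, Btg2 and Ier2 than the low-dose mice. For Fos 8 of 15 high-dose arrays lay below all low-dose arrays, and the log2 difference was -0.48 ± 0.14 (limma adjusted p = 0.0139). For Dusp1, 6 of 15 high-dose arrays lay below all low-dose arrays, with a difference of -0.39 ± 0.12 (adjusted p = 0.0195). Btg2 had 8.37, 8.77 and 9.12 in high-dose mice, against 8.64, 9.03 and 9.19 in low-dose mice, with a difference of -0.21 ± 0.06 (adjusted p = 0.0187), and its second probe set gave -0.33 (adjusted p = 0.0105). Ier2 had 7.24, 7.59 and 7.92 in high-dose mice, against 7.52, 7.85 and 8.25 in low-dose mice, with a difference of -0.23 ± 0.06 (adjusted p = 0.0073). The groups overlapped for all 4 genes.

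These were 4 of 9 genes, beside 12.6% of all tested genes lower in high-dose mice, 6.02% higher and 18.6% past the test in either direction. All 9 differences were below 0, while 41.7% of all tested genes had a difference above 0. The median difference was -0.15 over the 9 genes and -0.03 over all tested genes. Several measures of the arrays differed between the same groups. The level of hybridisation controls was 10.2 ± 0.4 in high-dose and 9.81 ± 0.36 in low-dose mice, and that of 18S ribosomal RNA was 7.79 ± 0.99 in high-dose and 7.00 ± 0.86 in low-dose mice. The B cell marker mean was 8.19 ± 0.28 in high-dose (7.81 to 8.82) and 8.90 ± 0.23 in low-dose mice (8.48 to 9.40), and the monocyte marker mean was 8.15 ± 0.15 in high-dose (7.87 to 8.36) and 8.49 ± 0.13 in low-dose mice (8.28 to 8.72). With hybridisation controls, 18S ribosomal RNA or cell marker means as covariates, 0 of the 9 genes passed, while over all 12580 genes 697, 895 and 46 passed, against 2345 without a covariate. In this order of covariates the Fos difference was -0.47, -0.46 and -0.47 (limma adjusted p = 0.0599, 0.0542 and 0.292), and the Dusp1 difference was -0.35, -0.32 and -0.43 (adjusted p = 0.109, 0.119 and 0.240). The Btg2 difference was -0.15, -0.13 and -0.03 (adjusted p = 0.199, 0.218 and 0.893), and the Ier2 difference was -0.18, -0.16 and 0.0034 (adjusted p = 0.0921, 0.115 and 0.991). The differences of Btg2 and Ier2 were thus near 0 once cell marker means were in the fit.

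After recovery the dose groups did not differ in these genes by the test. Fos had a lowest, median and highest level of 5.76, 6.46 and 7.26 in high-dose mice and of 5.60, 6.33 and 7.72 in low-dose mice, against 5.88, 6.16 and 6.75 in control mice. Its log2 difference from control was 0.20 for the high dose, with a 95% interval of -0.17 to 0.57, and 0.19 for the low dose, with an interval of -0.16 to 0.55. Dusp1 differed from control by 0.18 (-0.14 to 0.49) at the high dose and by 0.25 (-0.06 to 0.56) at the low dose. Of the 9 genes 0 passed limma's test for the high dose against control (0.429% of all tested genes, with 0.405% of all tested genes higher), 0 for the low dose against control (0%) and 0 for high against low dose (0%). At an unadjusted p under 0.05 there were 4, 1 and 2. The differences nearest to the threshold included Egr1 at the high dose, -0.23 against control, with adjusted p = 0.188.

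**Figure D2:**
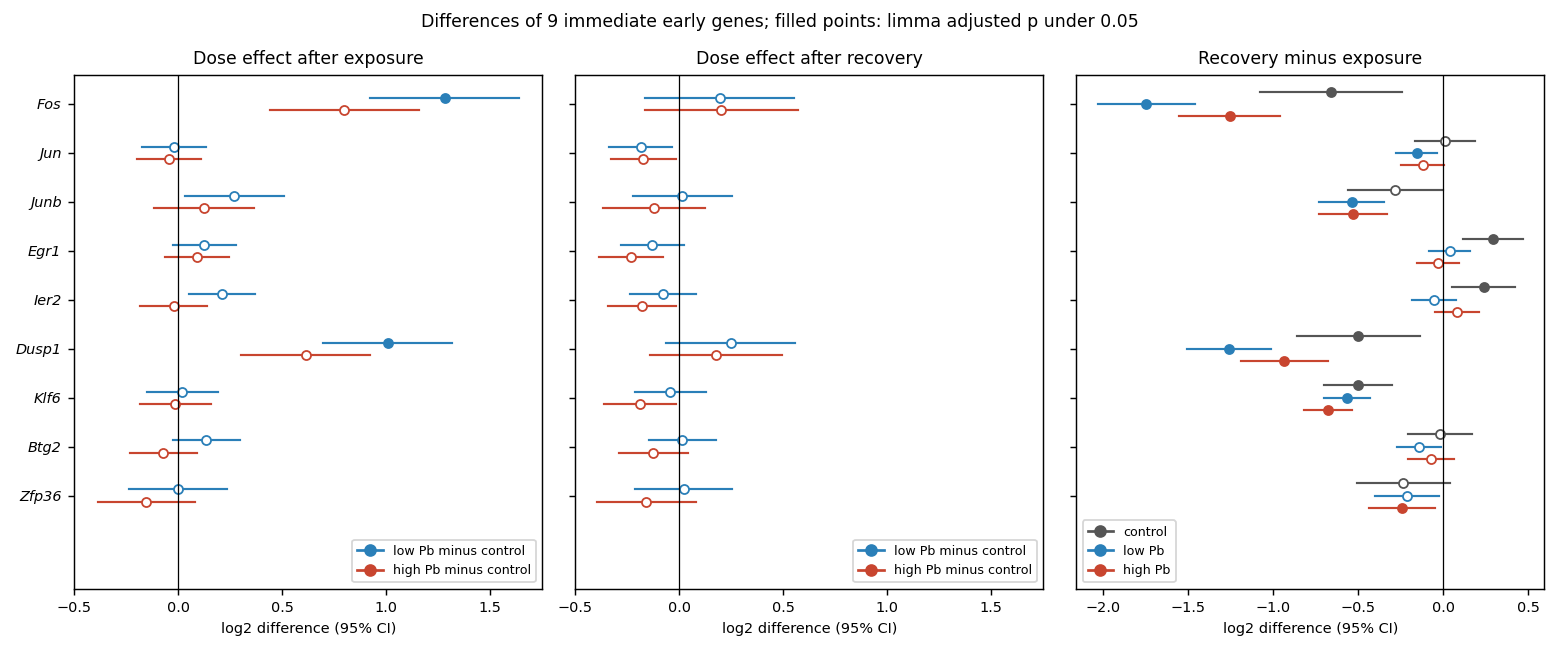
Log2 differences (horizontal axis) of the 9 tested genes (rows), with 95% confidence intervals as lines and filled points where limma's adjusted p was under 0.05. The left panel gives each dose minus control after exposure, the middle panel the same after recovery, and the right panel recovery minus exposure within each dose group, on an axis of its own. Fos and Dusp1 at the low dose are the filled points of the left panel, the middle panel has 0, and Fos, Dusp1 and Klf6 are filled in the 3 dose groups of the right panel.

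Fos, Dusp1 and Klf6 were lower after recovery than after exposure in each of the 3 dose groups, the control group included. Fos had 5.60, 6.33 and 7.72 in low-dose mice after recovery, against 7.79, 8.20 and 8.47 after exposure, so the groups did not overlap. The difference was -1.75 ± 0.14, a 3.36-fold lower level (limma adjusted p = 2.77e-15). In high-dose mice Fos had 5.76, 6.46 and 7.26 after recovery, against 7.28, 7.70 and 8.14 after exposure, again without overlap, and the difference was -1.26 ± 0.15, 2.39-fold lower (adjusted p = 1.89e-10). In control mice Fos had 5.88, 6.16 and 6.75 after recovery, against 5.97, 6.77 and 7.85 after exposure, and the difference was -0.66 ± 0.21, 1.58-fold lower (adjusted p = 0.0104).

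Dusp1 had a log2 difference between recovery and exposure of -1.26 ± 0.12 in low-dose mice, -0.94 ± 0.13 in high-dose mice and -0.50 ± 0.18 in control mice (limma adjusted p = 2.34e-12, 1.04e-08 and 0.0252). In low-dose mice 14 of 15 recovery arrays lay below all exposure arrays, in high-dose mice 12 of 13, and in control mice 1 of 7. Klf6, a zinc finger factor expressed in many tissues, had 6.99, 7.29 and 7.68 in low-dose mice after recovery, against 7.50, 7.91 and 8.09 after exposure. It had 6.97, 7.14 and 7.49 in high-dose mice after recovery, against 7.39, 7.86 and 8.25 after exposure. The control mice had 7.05, 7.37 and 7.61 after recovery, against 7.60, 7.85 and 8.19 after exposure, where 6 of 7 recovery arrays lay below all exposure arrays. Its differences were -0.56 ± 0.07, -0.68 ± 0.07 and -0.50 ± 0.10 in low-dose, high-dose and control mice (adjusted p = 6.26e-10, 5.72e-12 and 5.99e-05).

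Junb, a JUN family subunit, fell by 0.54 in low-dose mice and by 0.53 in high-dose mice (limma adjusted p = 4.38e-06 and 8.71e-06), and its difference in control mice was -0.28 ± 0.14 (adjusted p = 0.104). Zfp36 differed by -0.24 in high-dose, -0.21 in low-dose and -0.24 in control mice, and passed in the high-dose mice (adjusted p = 0.0343), a call lost in 5 of 28 refits without 1 array. Jun fell by 0.16 in low-dose mice (adjusted p = 0.0326), a call that was lost in 7 of 30 refits without 1 array. In control mice Egr1 was higher after recovery by 0.29 ± 0.09 (adjusted p = 0.0072) and Ier2 by 0.24 ± 0.09 (adjusted p = 0.039), and the Ier2 call was lost in 7 of 14 such refits. With cell marker means as covariates the Egr1 difference was 0.28 (adjusted p = 0.147) and that of Ier2 was -0.042 (adjusted p = 0.866). In the exposed groups both differences lay between -0.05 and 0.08. Btg2 differed by -0.07 in high-dose, -0.14 in low-dose and -0.02 in control mice, with no adjusted p under 0.05.

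In control mice 3 of the 9 genes were lower after recovery, beside 13.6% of all tested genes, and 2 were higher, beside 22.5%. In low-dose mice 5 were lower, beside 17.9% of all genes, and 0 higher, beside 26.2%. In high-dose mice 5 were lower, beside 19.8%, and 0 higher, beside 29.4%. In either direction 36.1%, 44.1% and 49.2% of all genes passed in control, low-dose and high-dose mice. In control mice the counts rested on single arrays: Dusp1 was not called without control exposure replicate 2 or 7 or control recovery replicate 5, and Fos was not called without control exposure replicate 7 (-0.50, adjusted p = 0.0594). The collections differed in measures of the RNA and of the cells too. The 3′ minus 5′ difference of Gapdh probe sets had group means of 0.84 to 0.93 after recovery and of 0.53 to 0.56 after exposure, and that of actin 0.65 to 0.68 after recovery and 0.37 to 0.48 after exposure. The B cell marker mean was 9.19 to 9.47 over the recovery groups and 8.19 to 8.90 over the exposure groups, and the erythroid marker mean was 8.69 to 9.05 over the recovery groups and 9.08 to 9.35 over the exposure groups. Recovery followed exposure in each group, so the end of lead exposure, the age of the mice and the collection itself cannot be told apart within the exposed groups, and the part of these measures in the differences was not tested beyond the covariates. With cell marker means as covariates Fos was lower by 1.60 in low-dose mice (-1.60, adjusted p = 1.75e-10) and by 1.15 in high-dose mice (-1.15, adjusted p = 2.93e-05), and in control mice its difference was -0.73 (adjusted p = 0.143). Of the 5 calls in control mice 1 was left with these covariates, that of Klf6 (-0.58, adjusted p = 0.0112), while 475 of all genes passed, against 4542 without them.

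Whether a dose effect differed between the collections was tested as an interaction, which takes the change in control mice out. For the low dose the Fos effect after recovery was smaller than after exposure by a log2 difference of -1.09 ± 0.25 (95% interval -1.59 to -0.58, limma adjusted p = 0.0576), and that of Dusp1 by -0.76 ± 0.22 (-1.20 to -0.32, adjusted p = 0.0981). For the high dose the values were -0.60 ± 0.26 for Fos and -0.44 ± 0.22 for Dusp1 (both adjusted p = 1.0). So 0 of 9 genes passed at the low dose and 0 at the high dose, beside 0.0238% (0.0159% higher) and 0.00795% of all tested genes, while 4 and 2 had an unadjusted p under 0.05. The Fos value for the low dose passed in 7 of 44 refits that left out 1 array: without control exposure replicate 4 or 7, control recovery replicate 1, low-dose exposure replicate 12 or low-dose recovery replicate 6, 7 or 10. Over the 44 refits it lay between -1.25 and -0.93, with adjusted p between 0.0109 and 0.137.

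Ordered by group mean, Fos stood at 8.17 in low-dose, 7.69 in high-dose and 6.89 in control mice after exposure, and at 6.43, 6.42 and 6.23 in high-dose, low-dose and control mice after recovery. The first step of this order passed limma's test (adjusted p = 0.0139), as did the step between control mice of the exposure collection and high-dose mice of the recovery collection (adjusted p = 0.0473), and the other 3 neighbours did not differ by it. For Dusp1 the order was 9.40, 9.01 and 8.39 in low-dose, high-dose and control mice after exposure, and 8.14, 8.07 and 7.89 in low-dose, high-dose and control mice after recovery. Of its 5 steps the first passed. Klf6 had 1 step past the test, between high-dose exposure mice at 7.86 and control recovery mice at 7.37 (adjusted p = 2.49e-06). Jun, Junb, Egr1, Ier2, Btg2 and Zfp36 had 0 neighbouring groups that differed at an adjusted p under 0.05.

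The probe sets of Klf6 did not give 1 answer. The probe set that stands for the gene, 1433508_at, has a mean level of 7.58, and 1427742_a_at is close to it at 7.54. The probe sets 1433508_at, 1447448_s_at and 1418280_at were lower after recovery in each dose group, with log2 differences between -0.78 and -0.38. For 1427742_a_at the differences were -0.18 ± 0.11 in low-dose mice, -0.04 ± 0.12 in high-dose mice and -0.12 ± 0.17 in control mice (limma adjusted p = 0.198, 0.802 and 0.607). The fifth, 1459718_x_at, exceeded 4.14 in 0 arrays. The Klf6 result therefore holds for 3 of the 4 probe sets that passed the filter.

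**Figure D3:**
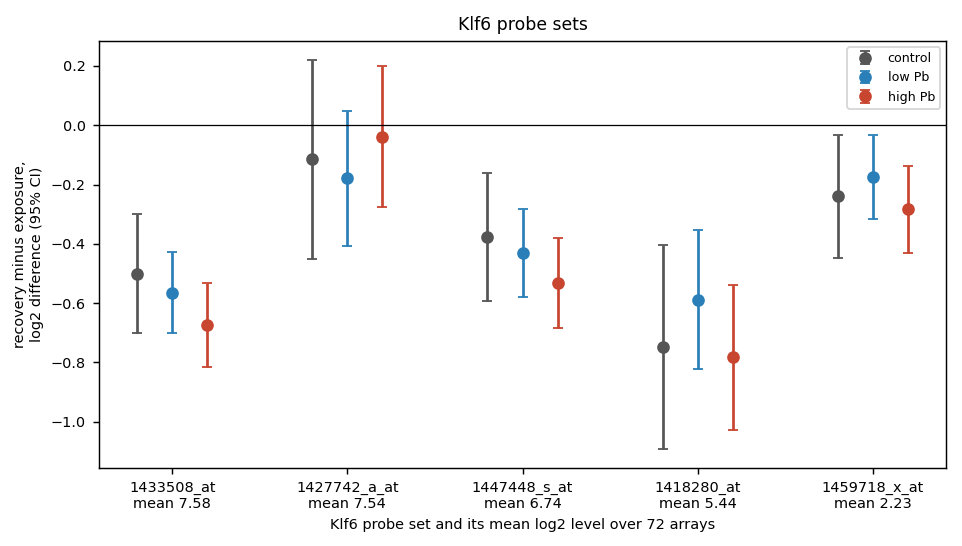
Log2 difference of recovery minus exposure (vertical axis, 95% confidence intervals as bars) for the 5 Klf6 probe sets (horizontal axis, with their mean level over 72 arrays) in control, low-dose and high-dose mice. The intervals of 1427742_a_at cross 0 in each dose group, while those of 1433508_at, 1447448_s_at and 1418280_at lie below it.

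Apart from the differences between groups, some of the genes also varied together between mice of 1 group. After the group means were removed, Fos and Dusp1 had a Pearson r of 0.73 and a Spearman rho of 0.67 over 72 arrays. A permutation test within groups gave p = 1e-05 for both, the smallest that 100000 resamples can give, and 4.09e-05 adjusted over the 45 pairs of genes. Without the 2 arrays farthest from the median r was 0.67, and it was 0.68 within the recovery collection and 0.82 within the exposure collection. Within single groups the r of Fos and Dusp1 lay between 0.28 (control mice after recovery) and 0.96 (control mice after exposure). Of the 45 pairs 23 passed at an adjusted p under 0.05, 20 of them positive, and the median r over the 45 pairs was 0.22. The share of pairs among all genes that would pass the same test was not computed.

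Apart from Dusp1 and Fosb, the genes had their highest correlation with a gene other than Fos. Btg2 and Zfp36 had r = 0.77 and rho = 0.79, Ier2 and Btg2 r = 0.65, and Klf6 and Zfp36 r = 0.60, against 0.04 for Fos with Btg2 (permutation p = 0.75) and 0.07 for Fos with Ier2 (permutation p = 0.542). Junb had r = 0.69 with Dusp1, 0.66 with Zfp36 and 0.39 with Fos. Egr1 had r = 0.51 with Btg2 but -0.27 with Fos, which missed the adjusted threshold (permutation, adjusted p = 0.0531). The 3 negative pairs past the threshold were those of Fosb with Ier2, Btg2 and Egr1, at r between -0.43 and -0.38, with Fosb below the filter level in each array. After quantile normalization r was 0.76 for Fos and Dusp1, 0.65 for Btg2 and Zfp36, 0.42 for Klf6 and Zfp36 and 0.23 for Ier2 and Btg2. The last pair had r = 0.41 within the recovery collection and 0.83 within the exposure collection. With group means removed, the T cell marker mean had r = 0.76 with Btg2, 0.58 with Ier2 and 0.57 with Egr1. It was 0.47 with Klf6, 0.45 with Zfp36, 0.41 with Junb, -0.03 with Jun and -0.43 with Fosb. For Dusp1 it was 0.19 and for Fos -0.14, values that differed between groups. Control mice after exposure had r = -0.85 for Dusp1 and -0.92 for Fos, and high-dose mice after exposure 0.65 and 0.53. The monocyte marker mean had r = 0.57 with Btg2, 0.56 with Ier2, 0.30 with Dusp1 and 0.22 with Fos. The part of these markers in the correlations between genes was not tested.

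**Figure D4:**
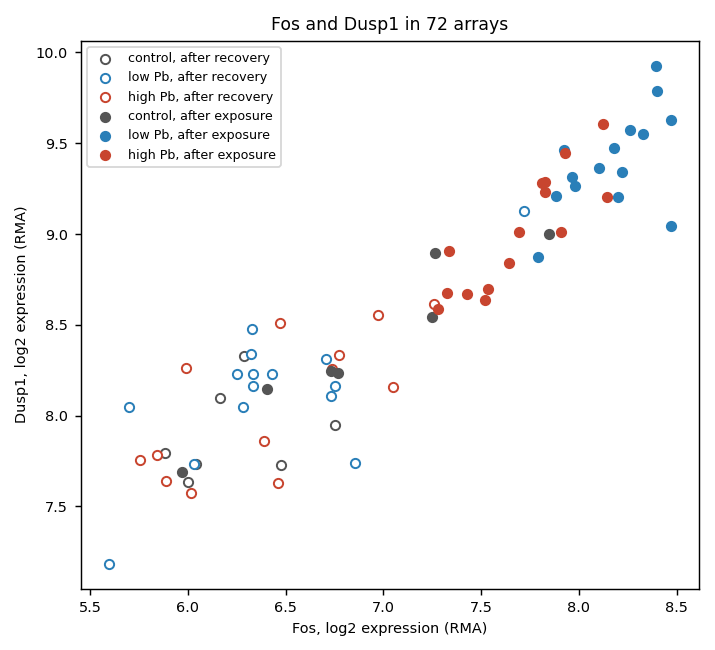
Log2 level of Fos (horizontal axis) against Dusp1 (vertical axis) in the 72 arrays, with open circles for recovery, filled circles for exposure and colour for dose. Low-dose exposure arrays lie at the upper right, and recovery arrays lie mostly at the lower left, together with several control exposure arrays.

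**Figure D5:**
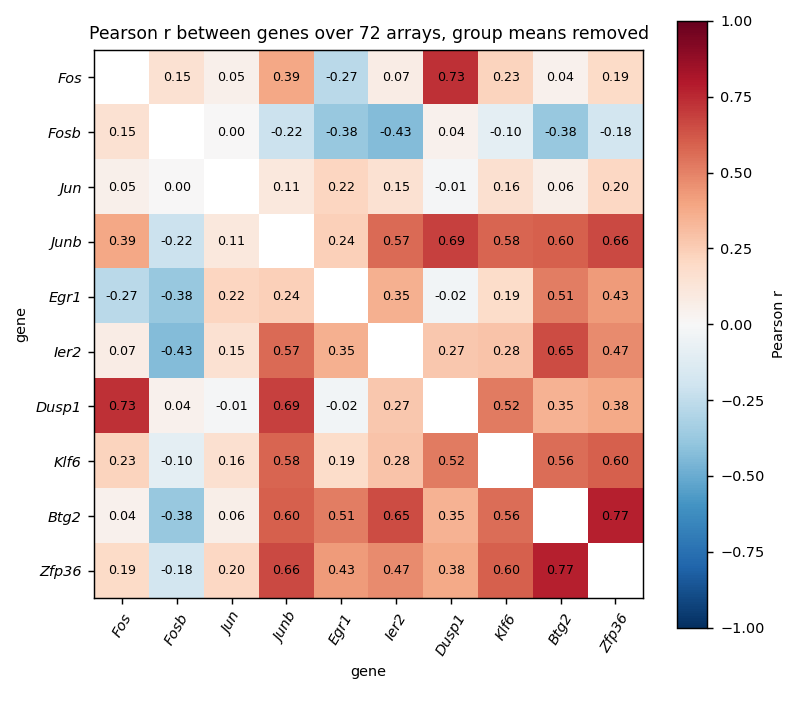
Pearson r between the 10 genes (both axes) over 72 arrays after removal of group means, with colour from -1 to 1. Fos with Dusp1 (0.73) and Btg2 with Zfp36 (0.77) are the highest values, and the Fosb pairs lie between -0.43 and 0.15.

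Among all tested genes Dusp1 was the one most like Fos and Fos the one most like Dusp1, both with group means removed and in the values as deposited, where r was 0.93 over 72 arrays. Outside the 10 genes, those most like Fos with group means removed were Ccni, Gabarapl2, Gpcpd1, Rnf11 and Map2k3, at r between 0.50 and 0.53. For Dusp1 they were Il1b, Fosl2, Tmem154, Tsc22d3 and Cd300a, at r between 0.59 and 0.66. In the deposited values Gpcpd1, Ccni, Yipf4, Piga and Tmem65 were most like Fos (0.79 to 0.82), and Zfp36l2, Cxcr4, Tsc22d3, Cited2 and Tnfaip3 were most like Dusp1 (0.78 to 0.84). With group means removed, the 5th and 95th percentiles of r over all genes were -0.27 and 0.28 with Fos and -0.27 and 0.35 with Dusp1. In the deposited values they were wider, at -0.62 and 0.54 with Fos and -0.54 and 0.57 with Dusp1. These values are descriptions, since arrays share collection and cell content, and the labels name no batch.

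Other genes of the same pathways were taken from 5 lists. After the low dose 3 of 32 tested other immediate early and AP-1 genes were higher than in control mice: Cxcr4, a chemokine receptor, by 0.75 ± 0.16 (limma adjusted p = 0.0044), Cd69, an early activation antigen, by 0.54 ± 0.15 (adjusted p = 0.0434), and Batf3, an AP-1 family factor, by 0.28 ± 0.08 (adjusted p = 0.0393). Over all tested genes 1.11% were higher and 1.3% passed in either direction. Of 13 genes known to respond to glucocorticoids Tsc22d3 (0.51 ± 0.11, adjusted p = 0.0044) and again Cxcr4 were higher. Of 18 kinases and factors upstream 1 was higher, Rps6ka5, which encodes the kinase MSK1 (0.47 ± 0.11, adjusted p = 0.0096). Of the 8 other MAP kinase phosphatases and of 10 genes of AU-rich mRNA decay and the BTG family 0 passed, with 2 and 1 at an unadjusted p under 0.05. The list medians lay between 0.01 and 0.08, against 0.00 over all genes.

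After the high dose 0 genes of the 5 lists passed limma's test against control, beside 0.0238% of all tested genes, and 8, 1, 3, 1 and 4 had an unadjusted p under 0.05 in other immediate early genes, phosphatases, upstream factors, mRNA decay genes and glucocorticoid-responsive genes. Between the doses after exposure, 5 of 10 mRNA decay and BTG family genes were lower in high-dose mice, among them Zfp36l1 (-0.32) and Tob2 (-0.25), relatives of Zfp36 and Btg2. Over all tested genes 12.6% were lower, 6.02% higher and 18.6% past the test in either direction. Of the 8 phosphatases Dusp2, Dusp5 and Dusp6 were lower by 0.18, 0.18 and 0.27 on the log2 scale, and 2 were higher, with Dusp16 at 0.37. Of the 18 upstream genes 5 were lower and 1 higher, of the 32 other immediate early genes 4 lower and 1 higher, and of the 13 glucocorticoid-responsive genes 1 lower and 2 higher. Against control and between doses after recovery 0 genes of the 5 lists passed, and 0 passed in either interaction, with at most 9 in a list at an unadjusted p under 0.05.

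Between recovery and exposure, the lists held genes lower in each dose group, and some held higher ones. Of the 32 other immediate early genes, 12 were lower and 1 higher in low-dose mice, 14 lower and 2 higher in high-dose mice, and 5 lower and 5 higher in control mice. Gadd45a, a stress-induced growth arrest gene, differed by -0.95 in low-dose, -0.94 in high-dose and -1.08 in control mice, and Rgs1, a regulator of G protein signalling, by -0.45, -0.46 and -0.60. Of the 8 phosphatases 5, 4 and 3 were lower in low-dose, high-dose and control mice, with Dusp2 among them at -0.32, -0.15 and -0.20. Crem, a transcription factor of the CREB family, differed by -0.69, -0.64 and -0.66 and was among 6, 5 and 4 lower genes of 18 upstream factors, of which 2, 3 and 0 were higher. Tob1 of the BTG family differed by -0.78, -0.94 and -0.91, among 4, 3 and 3 lower and 2, 2 and 2 higher genes of 10. The higher ones were Hnrnpd, by 0.42, 0.46 and 0.61, and Khsrp, by 0.26, 0.22 and 0.21. Of the 13 glucocorticoid-responsive genes 5, 5 and 1 were lower and 1, 0 and 1 higher. The shares of all tested genes given above for these comparisons apply here too.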

How the data were processed

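Gene expression was measured on 72 oligonucleotide arrays of whole blood. The authors deposited log2 levels per probe set, made by RMA according to the submitters' processing notes. No RMA program or version is given in the sources used here, and with values from 0.410 to 14.1 its exact variant stays unknown. Arrays give no read depth, so their number limits the precision. Of 45101 probe sets, 64 controls were left out of the tests, 34945 had 1 gene symbol in the platform annotation, 932 had several and 9160 were not listed. Probe sets with several symbols named no gene.

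Groups and replicate numbers came from sample titles. A probe set was kept above 4.14 in at least 7 arrays, and the highest-mean probe set stood for each gene, which left 12580 genes. Group means were fitted over all genes and arrays with limma 3.58.1 (statmod 1.5.0, R 4.3.3) without covariates, with empirical Bayes moderation and two-sided tests, with Benjamini-Hochberg adjustment over all genes of a comparison and a threshold of 0.05. Differences are given ± SE and levels ± SD. The fit was tested on simulated data. Correlations used two-sided permutation tests within groups. The 10 genes, 5 pathway lists and 9 cell and tissue marker lists were chosen with earlier results of these data known. Named were all 10 genes, the 5 genes most like Fos and Dusp1, and up to 4 members past the threshold per list. Alternatives were other normalizations, filters, array weights, only the groups compared, replicate blocks, covariates, other probe sets and leaving out arrays.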

Additional observations from a re-analysis of the deposited data

Results flagged for a closer look

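In the 20 groups of 4 to 10 arrays examined, the control groups of each gene at each collection, 2 arrays lay far from the rest of their group, and chance alone flags about 1 in 20 groups. Ier2 was at 7.38 in control replicate 5 after exposure, with the next lowest array at 7.65. Zfp36 was at 6.70 in control replicate 4 after recovery, with the next lowest array at 7.25.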

How the results depend on the processing

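Of the alternative settings and single-array omissions tried, the following changed how many of the 9 genes passed limma's test. For the high dose against control after exposure (0 genes, 3 over all genes), 2 passed with quantile normalization, 2 with 18S ribosomal RNA as a covariate, 1 with a stricter filter, 2 without the 4 arrays of widest relative log expression (an alternative chosen after seeing the data), and 0 to 1 without single arrays. These 4 settings called 75, 15, 9 and 13 over all genes. For the low dose against control (2 genes), 4 passed with array weights and 1, Dusp1, with cell marker means, settings under which 1408 and 2 of all genes passed, against 164. For high against low dose (4 genes), 0 passed with cell marker means, 0 with hybridisation controls and 0 with 18S ribosomal RNA as covariates, and 2 without the 4 widest arrays. For the high dose against control after recovery (0 genes), 1 passed with array weights, which called 430 over all genes, against 54. For recovery against exposure 1 gene passed with cell marker means in control mice (5 genes), and without single arrays 3 to 5 passed in control, 4 to 7 in low-dose and 4 to 5 in high-dose mice. For the low-dose interaction (0 genes), 1 passed with quantile normalization, 1 with a stricter filter, 2 with array weights, 1 with a random replicate block and 0 to 1 without single arrays, and the 4 settings called 78, 15, 716 and 16 over all genes, against 3. The sign changed for 2 differences, both of Ier2 with cell marker means: 0.0034 for high against low dose and -0.042 for recovery against exposure in control mice. The other 105 counts stayed within 1.5 times, and the causes of these shifts were not tested.

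The labels do not say if a replicate number marks the same mouse at both collections. Correlations cannot decide it, as no pair known to come from 1 mouse gave a reference. Same-numbered arrays correlated above 0.1 in 3 of 7 control, 7 of 15 low-dose and 4 of 13 high-dose pairs. The same-numbered recovery array was the closest match within its dose group in 0, 3 and 1 of these pairs. The number was also fitted as a fixed replicate block. That block joined different mice of different dose groups, so it cannot show if a number marks 1 mouse. With it, 3 genes passed for the low dose against control after exposure, 4 for high against low dose and 0 for the high dose against control. Over all 12580 genes 224, 2232 and 4 passed in these comparisons after exposure. With a random replicate block of the number within its dose group (consensus correlation 0.0212) 5 genes passed for recovery against exposure in each dose group. Beside them 4639, 5631 and 6264 of all 12580 genes passed in control, low-dose and high-dose mice.

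Quantile normalization moved the direction of calls over all genes: 30 of 75 were higher for the high dose against control after exposure, against 3 of 3 in the deposited values. For high against low dose 1145 of 2602 were higher, against 757 of 2345. For recovery against exposure 2496 of 4993 were higher in control mice, against 2833 of 4542, and 3205 of 6680 in high-dose mice, against 3694 of 6184. For the low dose against control after exposure they were 234 of 319, against 140 of 164, and for recovery against exposure in low-dose mice 2867 of 5702, against 3300 of 5549. Only 7 control arrays per collection limit each comparison with control.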
